A study of Mus musculus with 11 samples.

Results

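The genes described here encode the translation initiation factors (eIF1 to eIF6, their subunits, kinases and binding proteins) and the cytosolic elongation factors (eEF1 and eEF2, with the enzymes that modify them). They were found by name in the array annotation, as symbols that begin with Eif1 to Eif6 or with Eef1 or Eef2, without the Y-linked copy Eif2s3y and without pseudogene names. Of 63 such symbols, 60 had a probe that named 1 gene alone and carried values, and these 60 stand among 19938 genes measured. The other 3, Eif3j1, Eif3j2 and Eif4ebp3, shared their probes with other genes and were not analysed here. Expression was measured on 11 Affymetrix arrays, where neuroepithelium and paraxial mesoderm have 3 arrays each and neural crest has 5. All 3 tissues came from untreated CD1 embryos, an outbred mouse stock, at embryonic day 8.5. The labels record no genetic change and no treatment in any group. Tissue was cut out of frozen sections by laser capture, and its RNA was amplified before labelling. No embryo or number of cells is tied to an array in the sources used here, so p-values measure only the spread between these arrays, which may be partly technical. In such captures, fewer cells of a type and less RNA per cell cannot be told apart.

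The deposited values are linear ratios. Each sets a gene on 1 array against a reference value of that gene, close to its median over most arrays. A ratio of 1 places an array at the reference of that gene. It does not tell whether the gene was silent or strongly expressed, and ratios of different genes say nothing of their relative amounts. A gene is called high on an array at a ratio of at least 4 and low at a ratio of 0.25 or less. The difference between tissues is a difference of mean log2 ratios, and a gene passes at an adjusted p under 0.05.

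Translation starts when the small ribosomal subunit, loaded by eIF2 with the initiator tRNA, is brought by eIF3 to an mRNA whose cap is held by the eIF4 factors. eIF1, eIF1A and eIF5 guide the choice of the start codon, eIF5B joins the large subunit, and eIF2B recharges eIF2 with GTP. Stress kinases phosphorylate eIF2 and so slow most initiation, while the 4E-binding proteins withhold the cap-binding factor eIF4E. During elongation eEF1A delivers aminoacyl-tRNA, eEF2 moves the ribosome on, and eIF5A frees ribosomes that stall. Mutations of eIF2B subunits are known for damage to white matter, and in vertebrate embryos the crest is known to be sensitive to faults in ribosome production.

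Markers of the tissues were checked first. Of 8 crest markers, 1 to 5 were high on each crest array, 0 to 1 on each neuroepithelium array and 0 on each mesoderm array. Snai1 alone was high on every crest array (41.2 to 82.1), and on crest arrays 1 and 4 it was the only one. Tfap2a and Ets1 stayed within 2-fold on all arrays. Twist1 (5.92) was high on neuroepithelium array 2 and Tfap2b (22.6) on neuroepithelium array 3. Of 8 neuroepithelium markers, 0 were high on any neuroepithelium array, and 1 was high on crest array 3. None of 8 paraxial mesoderm markers was high on any array. The ratios thus set neither neuroepithelium nor paraxial mesoderm apart by its own markers. On mesoderm array 1 the 6 measured markers of primitive red cells were all high and summed to a ratio of 649, against 5.76 to 6.68 on the other arrays. Surface ectoderm markers summed to between 155 and 221 in neuroepithelium, 5.21 and 41.4 in crest, and 4.87 and 127 in mesoderm. Among them Epcam was high on all 3 neuroepithelium arrays (37.4 to 41.9) and on no other. Krt8 and Krt18 were high on those arrays too, but also on mesoderm array 2. Krt8 was high on crest array 3 (36.3) and mesoderm array 3 (30.5) as well. Gut endoderm markers reached a summed ratio of 136 on mesoderm array 3, where only Apela (125) and Foxa2 (7.64) were high. Endothelial markers stayed between 4.68 and 5.28. The part of these other cell types in the values below was not tested.

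Most translation factors were off their reference on some array. Only 16 of the 60 genes never departed from it by over 2-fold (26.7%, against 71.8% of all genes). Low values were common: 26 genes were low on at least 1 array (43.3%, against 4.77% of all genes). High values were found for 23 genes (38.3%, against 21.7%). By pattern, 19 were low on some arrays and never high (3.27% of all genes), 16 were high and never low (20.2%), 7 were both (1.5%) and 2 lay between the limits of 2-fold and 4-fold (3.27%). With a limit of 8-fold, 22 genes were low and 16 high on at least 1 array. The share of all genes at that limit was not counted, and the shares above do not apply to it. The share of all genes, here and below, is not a matched baseline, since the ratios do not tell which genes were expressed. Of the 78 other pathway genes described below, 28.2% stayed within 2-fold, 52.6% were high and 17.9% were low on some array. Whether the factors differ from expressed genes in general was not tested.

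**Figure D1:**
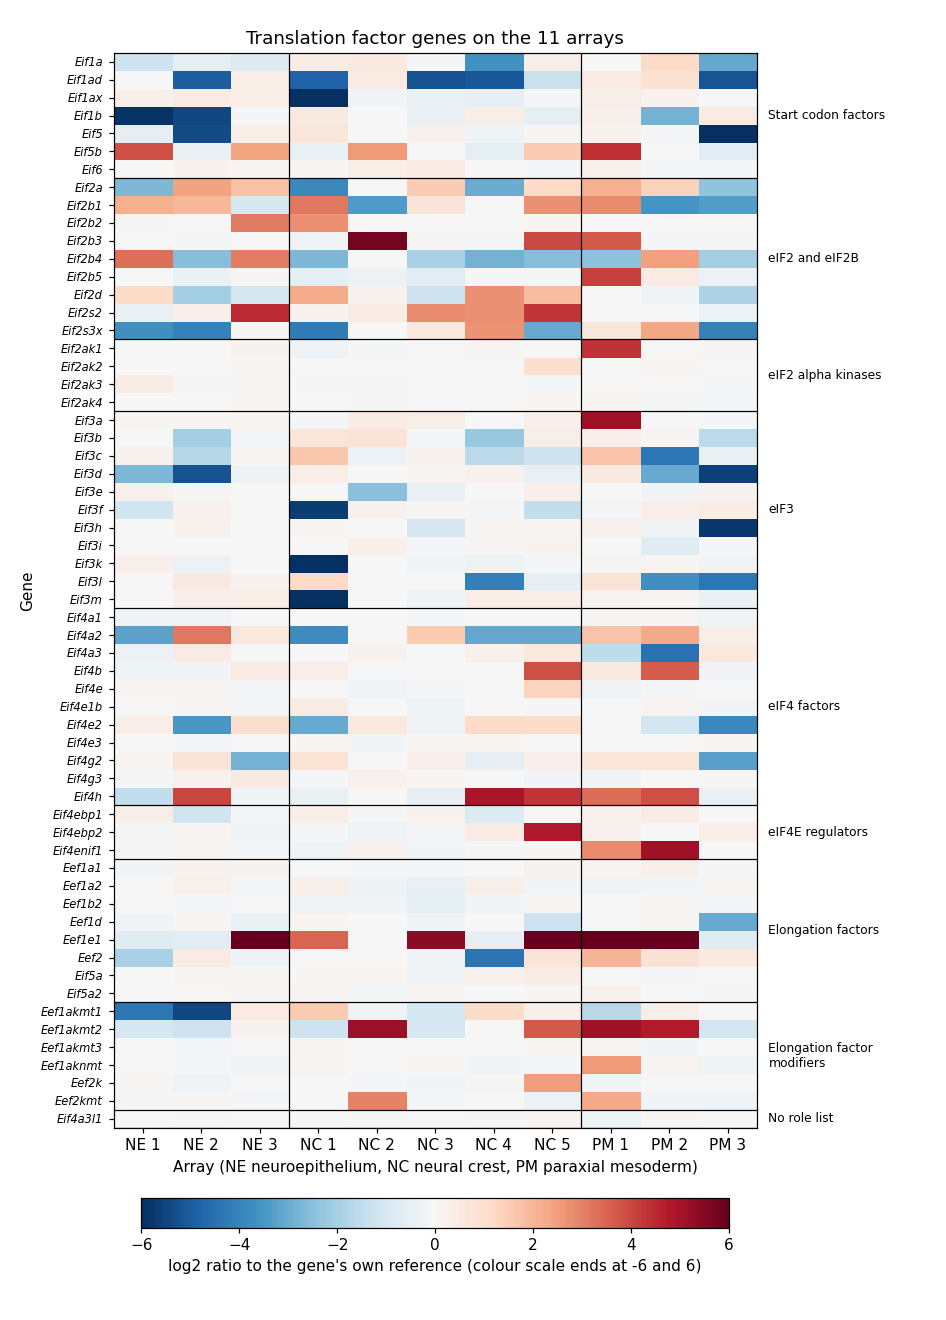
Log2 ratios of the 60 genes (rows, grouped by role) on the 11 arrays (columns, NE neuroepithelium, NC neural crest, PM paraxial mesoderm). Red cells lie above and blue cells below the gene's own reference. In the eIF3 block 9 of 11 subunits were low on some array, but at most 3 on the same array. The factors Eef1a1, Eef1a2, Eef1b2, Eif5a and Eif5a2 are pale throughout.

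The direction of these departures differed in number from role to role. Among the eIF3 subunits 9 of 11 were low only, and among the start codon factors 5 of 7. All 9 genes of eIF2, eIF2B and the related factors Eif2a and Eif2d were high on some array, 4 of them never low and 5 also low. Of the 8 elongation factors 5 stayed within 2-fold (62.5%, against 71.8% of all genes). Of the 6 enzymes that modify them 4 were high only (20.2% of all genes). The differences between roles were not tested, since genes of one array are no replicates.

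**Figure D2:**
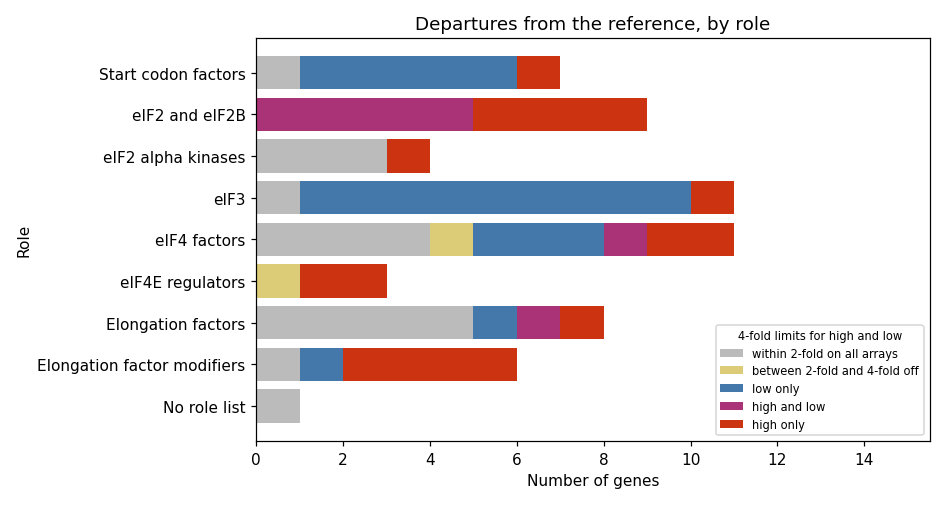
Number of genes of each role (bars, axis in genes) by pattern over the 11 arrays, with high meaning a ratio of at least 4 and low 0.25 or less. The eIF3 bar holds 9 genes that were low only, and the bar of eIF2 and eIF2B holds no gene within 2-fold.

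Promoter sequence was read for 47 of the 60 genes from RefSeq (assembly GRCm38.p6), over the 250 bases before each annotated start, with a gene of several starts counted once. The letters CACGTG, the same on both strands, form an E-box, the core to which Myc with Max and the USF factors are known to bind, and translation genes are known among the targets of Myc. CACGTG occurred before 11 of the 47 genes (23.4%), and before 1266 of 15614 tested genes with a promoter in that table (8.11%). The windows below show it in capitals for 6 of these 11 genes, chosen after their values were seen to include steady and variable ones, 5′ to 3′ on the strand of the gene.
Eif1b (chr9:120492555-120492605, plus strand): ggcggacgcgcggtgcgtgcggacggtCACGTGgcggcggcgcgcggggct
Eif3f (chr7:108934320-108934379, plus strand): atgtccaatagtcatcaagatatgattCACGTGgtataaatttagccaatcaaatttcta
Eif4a1 (chr11:69672580-69672639, minus strand): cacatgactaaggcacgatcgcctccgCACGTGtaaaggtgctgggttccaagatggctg
Eif4e (chr3:138527177-138527236, plus strand): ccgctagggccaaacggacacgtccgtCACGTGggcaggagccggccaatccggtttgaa
Eif4h (chr5:134639473-134639532, minus strand): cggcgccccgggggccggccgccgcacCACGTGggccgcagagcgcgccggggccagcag
Eef2 (chr10:81176561-81176620, plus strand): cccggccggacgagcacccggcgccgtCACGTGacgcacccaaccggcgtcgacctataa

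The E-box did not go with one pattern of values. It stood before 3 of 11 genes within 2-fold, 3 of 13 that were low only, 3 of 15 that were high only and 1 of 7 that were both. The median log2 difference of crest from neuroepithelium was 0.09 over the 11 genes with CACGTG (8 positive) and -0.03 over the 36 without (17 positive). A match is a description of the letters and not a site. The GC box, GGGCGG on either strand, occurred before 33 of the 47 genes (70.2%, against 49.3% of the tested genes), and TATAAA on either strand before 3 (6.38%, against 12.5%).

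Of the 7 start codon factors, 5 had deep lows, on 1 array (Eif1ax), 2 (Eif1a, Eif5), 3 (Eif1b) or 5 (Eif1ad). Eif1ax, the X-linked gene of eIF1A, which scans for the start codon, had ratios of 1.25, 1.42 and 1.32 in neuroepithelium, 0.0114, 0.898, 0.739, 0.721 and 0.927 in crest and 1.29, 1.16 and 1 in mesoderm. Crest array 1 was far below the rest, and the other 4 crest arrays were also below all 6 arrays of the other tissues, so the groups do not overlap. Its autosomal copy Eif1a was low on crest array 4 (0.0803) and mesoderm array 3 (0.12) instead. Eif1b, a close relative of the start codon factor eIF1, had ratios of 0.0168, 0.0227 and 0.955 in neuroepithelium, 1.47, 1, 0.746, 1.29 and 0.691 in crest and 1.24, 0.139 and 1.39 in mesoderm. It was low on a pair of neuroepithelium arrays and on mesoderm array 2, while no crest array was low.

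Eif5, which makes eIF2 hydrolyse its GTP at the start codon, was low on neuroepithelium array 2 (0.0243) and mesoderm array 3 (0.0151) and lay between 0.69 and 1.6 on the other 9 arrays. Eif1ad, an eIF1A-like gene, was low on neuroepithelium array 2 (0.0322), crest arrays 1 (0.0347), 3 (0.0265) and 4 (0.0294) and mesoderm array 3 (0.0274). It was thus split within every tissue. Eif5b, the subunit-joining GTPase, was the one start codon factor with high ratios: 14.7 and 5.19 on neuroepithelium arrays 1 and 3, 5.94 on crest array 2 and 20.6 on mesoderm array 1. Eif6, which keeps the large subunit free until it is needed, stayed between 0.911 and 1.42. Eif1 itself was not analysed here.

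eIF2 and its exchange factor eIF2B had the most two-sided values. Eif2s2, the beta subunit of eIF2, had ratios of 0.735, 1.25 and 22.1 in neuroepithelium, 1.17, 1.36, 7.17, 6.6 and 19.8 in crest and 1, 0.983 and 0.791 in mesoderm. All 5 crest arrays were above all 3 mesoderm arrays, while neuroepithelium spanned both. A second Eif2s2 probe did not share the high values (1 to 1.54 on crest arrays 1, 3, 4 and 5, and 0.19 on crest array 2), so the probes disagree. Eif2s3x, the X-linked gamma subunit, was low on 5 arrays, namely neuroepithelium arrays 1 (0.0776) and 2 (0.0598), crest arrays 1 (0.0552) and 5 (0.121) and mesoderm array 3 (0.0607). Crest array 4 (6.48) and mesoderm array 2 (4.92) were high. The alpha subunit gene Eif2s1 was not analysed here.

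The 5 subunits of eIF2B, which work as one complex, were not high on the same arrays. At most 3 of the 5 were high on 1 array, mesoderm array 1, and 0 were high on neuroepithelium array 2, crest arrays 3 and 4 and mesoderm array 3. Eif2b4, the delta subunit, had ratios of 10.0005, 0.169 and 8.39 in neuroepithelium, 0.153, 1, 0.261, 0.141 and 0.173 in crest and 0.181, 5.55 and 0.235 in mesoderm. It was high on a pair of neuroepithelium arrays and on no crest array, with neuroepithelium array 2 among the crest values. Eif2b1, the alpha subunit, had 4.41, 3.97 and 0.511 in neuroepithelium, 8.82, 0.0951, 1.7, 1 and 6.59 in crest and 7.09, 0.0854 and 0.0971 in mesoderm, so that highs and lows occurred in crest and in mesoderm alike.

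The remaining subunits were high on few arrays and never low. Eif2b3, the gamma subunit, reached 53.1 and 15.6 on crest arrays 2 and 5 and 13.0 on mesoderm array 1, and lay between 0.868 and 1.06 elsewhere. Eif2b2 was high on neuroepithelium array 3 (8.72) and crest array 1 (6.76), and Eif2b5, the catalytic subunit, on mesoderm array 1 alone (17.2). Among the other carriers of initiator tRNA, Eif2a ran from 0.068 on crest array 1 to 5.37 on neuroepithelium array 2. Eif2d ran from 0.242 on neuroepithelium array 2 to 6.79 on crest array 4.

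Of the 4 eIF2 alpha kinases 3 stayed within 2-fold on all arrays (75%, near the 71.8% of all genes). These were Eif2ak2, the kinase PKR that senses double-stranded RNA (up to 1.98 on crest array 5), Eif2ak3, the kinase PERK of the endoplasmic reticulum (0.914 to 1.38), and Eif2ak4, the kinase GCN2 that senses uncharged tRNA (0.959 to 1.08). Eif2ak1, the haem-regulated kinase known from red cell precursors, had ratios of 1, 0.982 and 1.17 in neuroepithelium, 0.851, 0.935, 1, 1.04 and 0.972 in crest and 20.5, 0.991 and 1.04 in mesoderm. The single high array, mesoderm array 1, is the one on which 6 of 6 red cell markers were high; their part in this value was not tested.

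eIF3 is the scaffold of many subunits that holds the small subunit and the mRNA together, and most of its genes lay at their reference except for deep lows on a few arrays. The lows were spread over several arrays, and subunits shared some of them. Crest array 1 was low for Eif3f (0.0192), Eif3k (0.0105) and Eif3m (0.01, a value at which 81 ratios of the deposited table stand and below which none lies, so that it may be a bound). Mesoderm array 3 was low for Eif3d (0.0206), Eif3h (0.0184) and Eif3l (0.0489), and mesoderm array 2 for Eif3c (0.0491), Eif3d (0.121) and Eif3l (0.079). No array was low for more than 3 of the 11 subunits, and neuroepithelium array 3, crest arrays 3 and 5 and mesoderm array 1 were low for 0. A second Eif3m probe was low on the same array and no other, although a near-identical copy of a gene could give both probes one signal.

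Eif3d, the subunit that can itself bind the mRNA cap, had ratios of 0.156, 0.0268 and 0.808 in neuroepithelium, 1.3, 1, 1.1, 1.2 and 0.739 in crest and 1.48, 0.121 and 0.0206 in mesoderm. No crest array was low, against a pair of arrays in each of the other tissues, whose remaining arrays overlap the crest. Eif3l was low on crest array 4 (0.0577) and on mesoderm arrays 2 and 3, and reached 1.45 in neuroepithelium, where no array was low. Eif3b was low on neuroepithelium array 2 (0.242) and crest array 4 (0.206), and Eif3e on crest array 2 (0.178). Eif3i stayed within 2-fold. Eif3a, the largest subunit, went the other way and was high on mesoderm array 1 alone (33.6), with 0.92 to 1.37 elsewhere.

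Of the eIF4 factors the helicase paralogs behaved unlike each other. Eif4a1, the main RNA helicase that unwinds the leader of an mRNA, lay between 0.842 and 1.12 on all arrays, and both of its other probes did so within 0.82 and 1.09. Eif4a2 had ratios of 0.109, 9 and 1.57 in neuroepithelium, 0.0731, 1, 2.93, 0.121 and 0.12 in crest and 3.32, 4.91 and 1.31 in mesoderm. It was low on 3 crest arrays and on none of mesoderm, while neuroepithelium covered both ends. Eif4a3, a helicase of the exon junction complex and no initiation factor in the strict sense, lay between 0.794 and 1.54 in neuroepithelium and crest and at 0.343, 0.0456 and 1.56 in mesoderm. Its near copy Eif4a3l1, in no role list, stayed between 0.836 and 1.11.

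Among the cap-binding genes, Eif4e lay between 0.864 and 1.08 on 10 arrays and at 2.52 on crest array 5. Another of its 3 probes read 0.04 on crest array 3 and 0.03 on mesoderm array 3, where the probe used here read 0.964 and 1, so the probes disagree. Eif4e2, the cap-binding homologue known from translational repression, was low on neuroepithelium array 2 (0.0879), crest array 1 (0.124) and mesoderm array 3 (0.0687). Eif4h, which assists the helicase, was high on 5 arrays: neuroepithelium array 2 (15.8), crest arrays 4 (29.8) and 5 (19.6) and mesoderm arrays 1 (10.3) and 2 (14.4). Its partner in that task, Eif4b, was high on crest array 5 (14.2) and mesoderm array 2 (12.6). Eif4g2, the scaffold of cap-independent initiation, was low on neuroepithelium array 3 (0.139) and mesoderm array 3 (0.105), and Eif4g3 stayed within 2-fold. Eif4e1b, the oocyte form, and Eif4e3 stayed there too, and Eif4g1 was not analysed here.

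The regulators of eIF4E were each high on few arrays or none. Eif4enif1, which carries eIF4E into the nucleus and to silencing bodies, had ratios of 1.05, 1.11 and 0.935 in neuroepithelium, 0.874, 1.2, 0.904, 0.944 and 1.07 in crest and 7.06, 33.4 and 1 in mesoderm. Mesoderm arrays 1 and 2 exceeded every other array, and mesoderm array 3 lay among the other tissues. A second probe pointed the same way with smaller ratios, 1.55 and 2.53 on those arrays and 0.86 to 1.07 on the others. Eif4ebp2, a 4E-binding repressor, was high on crest array 5 alone (27.6), and its relative Eif4ebp1 lay between 0.44 and 1.38.

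Of the 8 elongation factors, 5 never left their reference by over 2-fold (62.5%, against 71.8% of all genes). Eef1a1, the main carrier of aminoacyl-tRNA, lay between 0.901 and 1.22 on the 11 arrays, and Eef1a2, the form of muscle and neurons, between 0.744 and 1.28. Eef1b2, the exchange factor of eEF1A, lay between 0.685 and 1.05, Eif5a between 0.907 and 1.34 and its paralog Eif5a2 between 0.948 and 1.2. Eef1d, another exchange subunit, was low on mesoderm array 3 (0.123). Eef2, the translocase, had ratios of 0.263, 1.39 and 0.818 in neuroepithelium, 1, 1.02, 0.888, 0.0483 and 1.7 in crest and 4.17, 1.81 and 1.5 in mesoderm. All 3 mesoderm arrays were above all 3 neuroepithelium arrays, and crest array 5 lay between mesoderm arrays 2 and 3. Eef1g was not analysed here.

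Eef1e1, a small scaffold protein of the tRNA synthetase complex that is named after eEF1, was the most divided gene. Its ratios were 0.599, 0.641 and 66.6 in neuroepithelium, 11.1, 1, 42.1, 0.72 and 71.6 in crest and 72.8, 78.8 and 0.605 in mesoderm. It was high on 6 of 11 arrays and in every tissue, with at least 1 array of each tissue near or below 1.

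The enzymes that modify the elongation factors were mostly high on few arrays. Eef1akmt2, a lysine methyltransferase of eEF1A, had ratios of 0.478, 0.425 and 1.15 in neuroepithelium, 0.43, 35.0, 0.492, 1 and 12.7 in crest and 34.5, 27.1 and 0.462 in mesoderm. No neuroepithelium array was high, and the low ends of all 3 tissues overlap. Eef1akmt1, another such methyltransferase, was the one low gene of the group, with 0.0491, 0.0226 and 1.4 in neuroepithelium, 2.95, 0.85, 0.486, 2.18 and 1.24 in crest and 0.316, 1.27 and 1 in mesoderm. Eef2k, the kinase that arrests eEF2, was high on crest array 5 (5.68), where its second probe read 0.95. Eef2kmt was high on crest array 2 (7.94) and mesoderm array 1 (4.82), Eef1aknmt on mesoderm array 1 (5.8), and Eef1akmt3 on none.

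**Figure D3:**
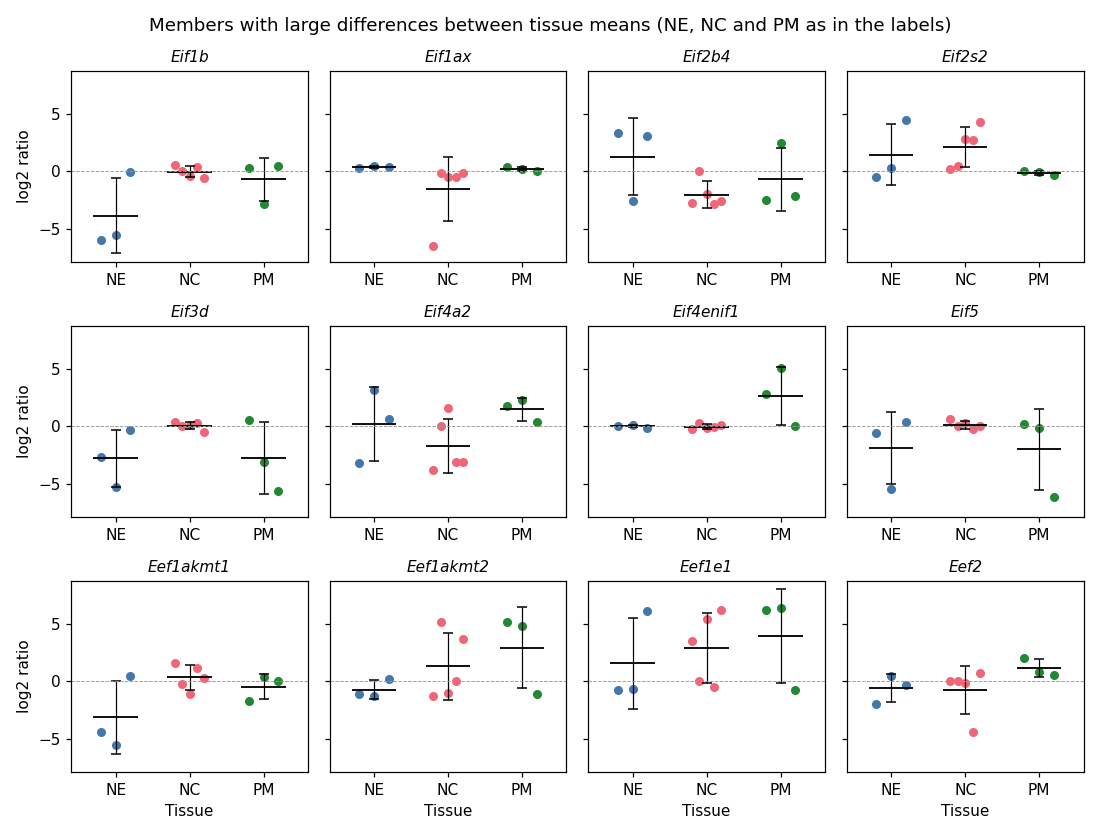
Log2 ratio of 12 genes on each array (points) by tissue (NE neuroepithelium, n = 3; NC neural crest, n = 5; PM paraxial mesoderm, n = 3), with the mean (horizontal line) and SD (bars); the dashed line is the reference. In most panels 1 or 2 arrays of a tissue lie far from their fellows, as for Eif1ax on 1 crest array, so the SD bars are long. Tissues overlap in most comparisons, but for Eif1ax all 5 crest arrays lie below every array of the other tissues.

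Neural crest was compared with neuroepithelium, the epithelium that crest cells leave. Eif1b (log2 difference 3.80, SE 1.33), Eef1akmt1 (3.45, SE 1.27) and Eif3d (2.80, SE 1.38) had the largest positive differences, each from a pair of neuroepithelium arrays that were low. Eif2b4 had the largest negative one (-3.28, SE 1.61). Eef1akmt2 (2.01), Eif5 (1.99) and Eif2b3 (1.89) followed, and Eif1ax (-1.93, SE 1.36) was below neuroepithelium on all 5 crest arrays. Single arrays carried much of the smaller differences. Without crest array 1 the Eif1ax difference was -0.70, and without neuroepithelium array 2 those of Eif5, Eif3d and Eef1akmt1 were 0.23, 1.56 and 2.27. Without crest array 2 those of Eif2b3 and Eef1akmt2 were 0.93 and 1.06. No gene of the set passed in limma (0 of 60, adjusted p = 1.00 for each gene named here; 0.0301% of all genes passed), and 2 were at unadjusted p < 0.05, Eif1b and Eef1akmt1 (2.79% of all genes). Genes with every crest array above numbered 0 (1.45% of all genes) and below 1 (1.53%), which is 1 of 60 without overlap in either direction (2.98%). The median difference over the 60 genes was 0.07 with 35 positive, against 0.00053 and 50.2% positive over all genes.

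Neural crest was also compared with paraxial mesoderm, into which crest cells move. Eif4a2 (log2 difference -3.14, SE 1.63) and Eif4enif1 (-2.64, SE 0.89) were higher in mesoderm on average, and Eif3d (2.76, SE 1.38), Eif2s2 (2.23, SE 1.26) and Eif5 (2.13) higher in crest. Eif2b1 (2.01), Eif4a3 (2.00) and Eif1ad (-1.94) followed. Without mesoderm array 3 the differences of Eif5 and Eif3d were 0.098 and 1.31. Without mesoderm array 2 those of Eif4a3, Eif2b1, Eif1ad and Eif4enif1 were 0.66, 0.92, -0.84 and -1.42, and without crest array 1 that of Eif1ax was -0.49. Eif2s2 was the 1 gene with every crest array above (1.46% of all genes) and Eif1ax (-1.72) the 1 with every crest array below (1.2%), in all 2 of 60 without overlap (2.66%). In limma 0 of 60 passed (adjusted p = 1.00 for each gene named here; 0.01% of all genes passed), and Eif4enif1 was the 1 gene at unadjusted p < 0.05 (2.89%). Without mesoderm array 3 it passed in limma (log2 difference -3.96, adjusted p = 0.0274, range over 23 settings 0.0274 to 1), and 43 of all genes passed in that fit, against 2 with that array. The median difference was 0.02 with 32 positive (all genes 0.0024 and 51.2%), and -0.16 without mesoderm array 3.

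Paraxial mesoderm was last compared with neuroepithelium. Eef1akmt2 (log2 difference 3.62, SE 2.12), Eif1b (3.12, SE 1.48), Eef1akmt1 (2.67), Eif4enif1 (2.59, SE 0.99), Eef1e1 (2.36) and Eif2s3x (2.21) were higher in mesoderm on average, and Eif3l (-2.67, SE 1.56) and Eif2b1 (-2.42) lower. Without mesoderm array 2 those of Eif2s3x, Eef1e1, Eif4enif1 and Eif2b1 were 0.88, 1.17, 1.37 and -1.32. Without neuroepithelium array 1 those of Eif1b and Eef2 were 2.08 and 1.07, and without neuroepithelium array 2 that of Eef1akmt1 was 1.49. Without mesoderm array 3 that of Eif3l was -1.70. Eef2 (1.75, SE 1.27) was the 1 gene with every mesoderm array above (2.82% of all genes), and 0 had every array below (4.02%), in all 1 of 60 without overlap (6.85%). Again 0 of 60 passed in limma (adjusted p = 1.00 for each gene named here; 0.015% of all genes passed), and Eif4enif1 alone was at unadjusted p < 0.05 (2.48%). It passed without mesoderm array 3 (log2 difference 3.90, limma adjusted p = 0.0496, range over 23 settings 0.0496 to 1), in a fit where 39 of all genes passed against 3 with that array. The median difference was 0.013 with 33 positive (all genes -0.0028 and 48.6%), and 0.16 without mesoderm array 3. In the test for any difference among the 3 tissues 0 of 60 passed (0.0301% of all genes) and 2 were at unadjusted p < 0.05, Eif4enif1 and Eif1b (2.57%). The 3 comparisons share their arrays in pairs, so a gene such as Eif4enif1 appears in more than 1 of them through the same values.

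The number of high and low factors varied widely within each tissue, here given with the share of all genes at the same limit. High factors numbered 3 (3.69% of all genes), 3 (2.91%) and 5 (5.63%) on the neuroepithelium arrays. On the crest arrays they numbered 4 (2.06%), 4 (5.81%), 2 (5.34%), 4 (2.06%) and 9 (7.52%), and on the mesoderm arrays 14 (8.11%), 8 (4.03%) and 0 (1.91%). Mesoderm thus held both the array with the most high factors and the one with none.

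Low factors numbered 6 (0.757% of all genes), 10 (2.03%) and 1 (0.507%) in neuroepithelium. They numbered 10 (2.52%), 2 (0.366%), 1 (0.692%), 8 (1.49%) and 3 (0.336%) in crest, and 1 (0.542%), 6 (1.1%) and 13 (2.27%) in mesoderm. The 3 arrays with the most low factors, mesoderm array 3, crest array 1 and neuroepithelium array 2, also had the most low genes of all kinds (452, 503 and 405). Likewise mesoderm array 1 had the most high genes of all kinds (1617), and its summed red cell markers stood at 649. The part of those cells in its 14 high factors was not tested.

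**Figure D4:**
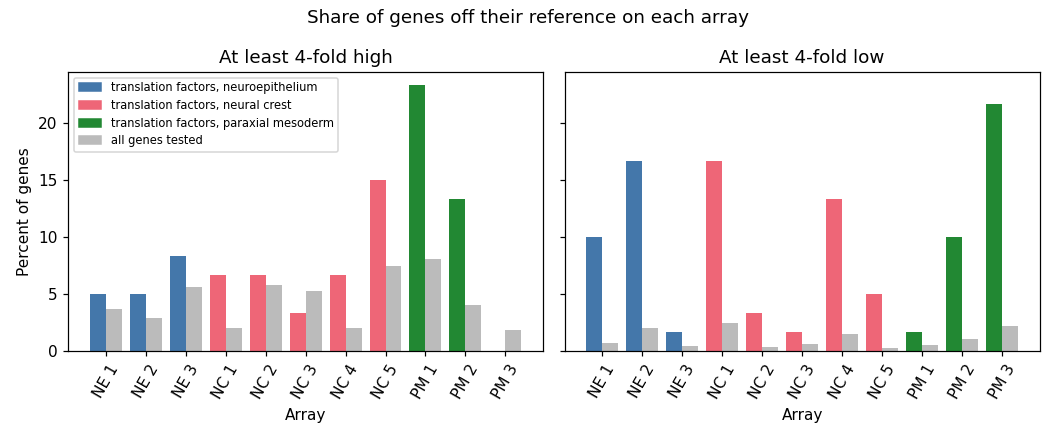
Percent of the 60 translation factors (coloured bars) and of all 19938 genes tested (grey bars) that were at least 4-fold high (left) or low (right) on each array. Low shares of the factors exceed those of all genes on every array, up to 21.7% against 2.27% on mesoderm array 3. On NE 3, NC 3 and PM 1 the low share rests on 1 factor. High shares exceed those of all genes except on NC 3 and PM 3.

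Several factors were high, or low, on 1 array alone. Eif2ak1, Eif3a, Eif2b5, Eef1aknmt and Eef2 were high on mesoderm array 1 and nowhere else, and Eif4ebp2 and Eef2k on crest array 5 and nowhere else. On crest array 1 Eif1ax, Eif3f, Eif3k and Eif3m were low there and nowhere else.

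Other genes of the pathway were read from 7 lists with 78 measured genes in all: termination and recycling, poly(A)-binding and scanning helpers, hypusine and diphthamide enzymes, mTOR and MAP kinase input, the integrated stress response, mitochondrial translation factors and aminoacyl-tRNA synthetases. In limma 0 of 78 passed in either direction in any of the 3 comparisons, with 3 at unadjusted p < 0.05 for crest against neuroepithelium, 6 for crest against mesoderm and 5 for mesoderm against neuroepithelium (2.79%, 2.89% and 2.48% of all genes). High on at least 1 array were 41 of the 78 (52.6%, against 21.7% of all genes), and 14 were low on at least 1 (17.9%, against 4.77%). By list, 12 of 20 synthetase genes, 7 of 10 mitochondrial factors, 6 of 8 hypusine and diphthamide enzymes and 5 of 9 termination genes were high on some array, against 3 of 12 in the mTOR list and 4 of 10 in the stress list.

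The pathway genes that separated tissues most did so with wide spreads. Tars, the threonyl-tRNA synthetase, had ratios of 0.582, 0.692 and 0.607 in neuroepithelium and 35.5, 6.89, 10.4, 1.16 and 12.04 in crest (log2 difference 3.70, SE 1.32). Dohh, the hydroxylase that completes hypusine on eIF5A, had 0.902, 0.871 and 1 in neuroepithelium and 37.0, 43.7, 1.18, 1.03 and 12.6 in crest, with 99.0 on mesoderm array 2. Gspt2, a release factor GTPase, had 42.5, 14.1 and 20.6 in neuroepithelium and 1.04, 1.12 and 0.952 in mesoderm (log2 difference of mesoderm from neuroepithelium -4.48, SE 1.08), with 17.9 on crest array 5. Smaller separations were those of Dph6 (1.54) for crest from neuroepithelium, Iars (0.37) for crest from mesoderm, and Dph5 (2.24) and Sars (1.42) for mesoderm from neuroepithelium. The limma adjusted p was 1.00 for each of these genes, with no overlap between the arrays of the tissues compared. Of the 78 pathway genes, 5 had every crest array above neuroepithelium and 0 below (1.45% and 1.53% of all genes). Against mesoderm, 1 had every crest array above and 0 below (1.46% and 1.2%). Mesoderm lay above neuroepithelium without overlap for 3 and below for 3 (2.82% and 4.02%). Up to 3 genes per comparison were named, so Akt1 and Sars were left out for crest against neuroepithelium. For mesoderm against neuroepithelium Trib3 (above) and Iars and Mtrf1 (below) were left out.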

How the data were processed

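The submitters' processing notes name RMA and the build mm9, with no role or version. The authors deposited linear ratios per probe, 1 column per array, whose column medians run from 0.991 to 1.006. The sources used here do not give the scaling. On 8 arrays 2156 to 5089 probes held exactly 1 (within 1e-05), and where 1 of these arrays did, 3 or 4 of the other 7 lay below it. Of 28856 probes with values, 21789 named 1 gene; the probe with the highest mean log2 stood for each of 19938 genes, 8 of the 60 factors having several. This choice favours probes with high ratios. All 11 columns were matched to samples.

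Log2 was taken without a pseudocount. One mean per tissue was fitted over all arrays with limma 3.58.1 under R 4.3.3 (lmFit, eBayes without an intensity trend, which ratios cannot supply), with Benjamini-Hochberg adjustment over all genes. The fit was tested on simulated data. The members, lists and tests were chosen with earlier results of these data known. Named members were those without overlap between tissues at a log2 difference of at least 1, the 8 largest differences per comparison and 11 core factors, 3 of which (Eif1, Eif2s1 and Eif4g1) were not analysed here; other members are named by the array on which they were off. Of the pathway lists, up to 3 genes per comparison without overlap were named. Files hold no coordinates; those printed belong to the RefSeq promoters. Alternatives covered the variance model, array weights, probe choice, low values, a filter, quantile normalization, the arrays fitted and a replicate block.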

Additional observations from a re-analysis of the deposited data

Results flagged for a closer look

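Within the 5 crest arrays, a single array stood far from the other 4 for 3 of the 24 named genes checked, by the gap to its nearest neighbour over the whole range; about 1 in 20 groups is expected to show this by chance. They were Eif1ax on crest array 1 (0.0114), Eef2 on crest array 4 (0.0483) and Eif4e on crest array 5 (2.52). Genes named only by the array on which they were off were not checked. Among these are Eif3k (0.0105) and Eif3m (0.01) on crest array 1, and Eif4ebp2 (27.6) and Eef2k (5.68) on crest array 5. The number of high factors was also set apart on crest array 5, at 9.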

How the results depend on the processing

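None of the 26 differences named by size or by lack of overlap turned its sign under any alternative tried. Core factors outside these differences were not followed through the alternatives. Other probes turned the crest against neuroepithelium difference of Eif4e from 0.18 to -0.64 and of Eif4a1 from 0.12 to -0.0066. A second Eif5a probe turned crest against mesoderm from 0.21 to -0.15 and mesoderm against neuroepithelium from -0.11 to 0.16. The count of passing factors was 0 in every comparison under every alternative except that, with 1 array left out, it ran from 0 to 1 for crest against mesoderm and for mesoderm against neuroepithelium; the 1 was Eif4enif1 without mesoderm array 3. Leaving out 1 array moved the median difference of the factors to between 0.02 and 0.08 for crest against neuroepithelium, -0.16 and 0.10 for crest against mesoderm, and -0.072 and 0.16 for mesoderm against neuroepithelium, and the counts of high, low and steady factors to 18 to 23, 22 to 26 and 16 to 20. With only genes at least 2-fold off on some array, which leaves out the steady factors, the medians were 0.17, -0.22 and 0.14. The first median, 0.07 in the report, was -0.0084 with the replicate block and -0.023 without the 3 arrays that are not part of the reference, an alternative chosen after seeing the data. The replicate block gave 0 passing factors in each comparison. Same-numbered arrays deviated with correlations of -0.15 to 0.05, and 0 of 9 arrays were closest to their own number. The numbers thus gave no sign of pairing. With so few arrays per tissue, weak correlations cannot exclude that some arrays share an embryo. Over all genes the passing counts, 6, 2 and 3 in the report's fit for these comparisons and 6 among the 3 tissues, were 2, 0, 2 and 3 with an intensity trend, 11, 2 and 5 with only the tissues compared, 16, 2, 14 and 14 without the arrays outside the reference, and ran from 5 to 19, 1 to 43, 3 to 39 and 5 to 42 with 1 array left out, the highest of the last 3 ranges without mesoderm array 3. The replicate block gave 3 against 2 for crest against mesoderm and 2 against 3 for mesoderm against neuroepithelium. Ratios hold no signal over background, so the precision of a low value is unknown, and 3 arrays in a tissue limit every comparison.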
